A study of Carica papaya with 7 samples.

Results

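Photosystem II core genes of the plastid genome were examined in the pulp of unripe and ripe papaya (Carica papaya L., cultivar 'Golden'). The set was chosen by gene symbol and comprised 6 genes, psbA, psbB, psbC, psbD, psbE and psbF, each with 1 probe set among the 22746 probe sets of the table that are not controls. RNA of papaya pulp had been hybridized to the Affymetrix ATH1 GeneChip, which carries short oligonucleotides designed for Arabidopsis, so that each signal also depends on how well the papaya transcript matches these probes. The fruit were picked at colour break to slightly yellow, about 150 days after anthesis, and each pulp sample was a pool of 12 fruits without peel and seeds, frozen in the unripe or in the ripe state. The labels name no treatment or genotype other than the cultivar, and both groups share the harvest stage. According to the methods, 1 sample of each stage came from an earlier harvest year than the others. The deposited columns hold no separate values for these samples, as described below, so that harvest years cannot be compared. The genomic DNA array of the series, which the rule for the set also names, was not analysed here.

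Photosystem II is the thylakoid membrane complex that uses light to oxidize water and passes the electrons to plastoquinone. Its reaction centre is a pair of related proteins, D1 (psbA) and D2 (psbD), flanked by the chlorophyll-binding inner antenna proteins CP47 (psbB) and CP43 (psbC) and by cytochrome b559, whose alpha and beta subunits are encoded by psbE and psbF. All of these genes have remained in the plastid genome, where most are transcribed together with neighbouring genes. D1 is damaged by light and replaced continually, and psbA is therefore known as one of the most strongly expressed plastid genes in green leaves. When a fleshy fruit ripens, chloroplasts turn into chromoplasts and the thylakoids are broken down.

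The table has 3 unripe and 3 ripe columns, but these were not independent. In each stage the second column equalled the first times 1.19 and the third was halfway between these, to within 0.0011 units of signal in all rows. They were counted as 1 set of values per stage. Differences between the stages therefore have no SD, no replicate check and no p-value, and the word lower or higher describes these values alone. A difference below 0 stands for a lower mean log2 signal in ripe than in unripe pulp. Signals brighter than 8.22, the brightest of 27 control probe sets for Bacillus subtilis genes, were taken as detected, and 10.5% of the probe sets passed this level in at least 1 stage. Of the 8 genes listed as markers of ripening pulp only EIN3, a transcription factor of ethylene signalling, had a probe set that matched by gene symbol. This was below the level of the controls in both stages (4.45 unripe, 4.38 ripe), so that these signals gave no check of the labelled tissue.

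Of the 6 core genes, 4 had lower signals in ripe pulp by more than 0.32 on the log2 scale, which is the fold threshold of the study's methods and is called the threshold from here on. These were psbD, psbE, psbC and psbF, while psbA differed by less than the threshold and psbB was higher in ripe pulp. Over all probe sets 3.53% were lower past the threshold and 3.57% were higher. Among the probe sets above the bacterial controls 10.2% were lower. Past 1.5 fold there were 3 core genes on the lower side (psbD, psbE and psbC), against 0.268% of all probe sets, and past 2.0 fold only psbD, against 0.0264%. The median difference of the core genes was -0.54 on the log2 scale, where that of all probe sets was -0.0047. In pulp RNA, fewer plastids or green cells and less transcript per plastid cannot be told apart. The priming site of the reverse transcription is not given, and whether the primed share of plastid transcripts changed was not tested. Among the spiked controls, the median log2 difference was -0.60 for bioB, bioC and bioD and -0.053 for cre. What such a shift between arrays adds to the counts above was not tested either.

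**Figure D1:**
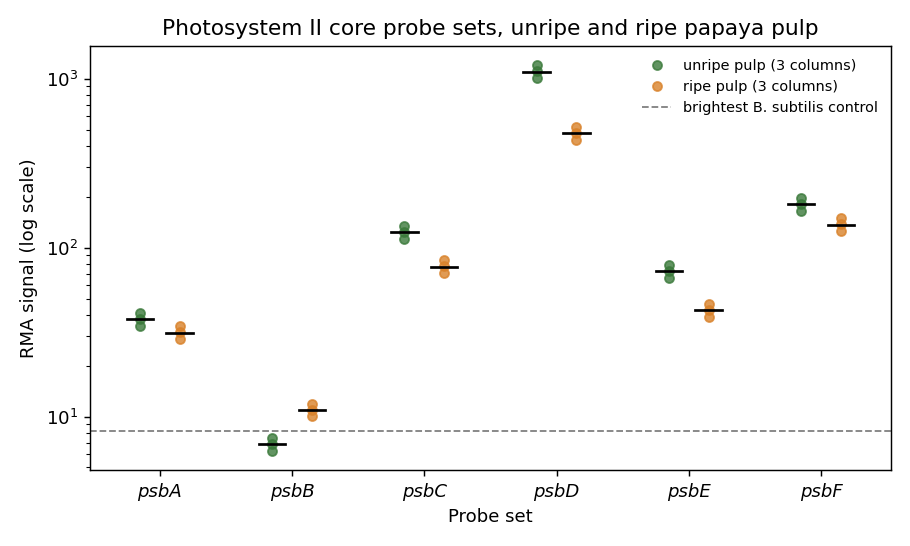
RMA signals (log scale) of the 6 photosystem II core probe sets in 3 unripe (green) and 3 ripe (orange) columns, with the geometric mean of each stage as a black bar and the brightest bacterial control as a dashed line. The columns of a stage differ by a constant factor and are no replicates; psbD drops from 1104 to 474, and psbB alone is higher in ripe pulp.

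The reaction centre gene psbD, for the D2 protein, had the second lowest difference of the whole table. Its signals were 1011, 1203 and 1107 in the unripe columns and 434, 517 and 476 in the ripe columns. Since the columns of a stage differ by the factor 1.19 alone, any log2 difference beyond 0.25 keeps the columns of the stages apart. A lack of overlap thus adds nothing to the difference and is not counted here. The mean signal in ripe pulp was 43.0% of that in unripe pulp, a log2 difference of -1.22. The probe set remained among the brightest of the array, at position 5 in unripe and 6 in ripe pulp. For psbA, which encodes the D1 protein, the signals were 34.5, 41.0 and 37.8 before and 28.8, 34.3 and 31.5 after ripening. The ripe signal was 83.5% of the unripe signal, and the log2 difference of -0.26 stayed within the threshold. By brightness the probe set was at position 73 in unripe and 85 in ripe pulp. It passed the threshold on the lower side, at -0.32, when unripe replicate 1 or ripe replicate 2 was left out, which moved the median of all probe sets down by 0.064 and 0.062, and on the higher side, at 0.34, when the arrays were scaled to the bioB, bioC and bioD hybridization controls.

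The inner antenna genes differed in opposite directions. For psbC, which encodes CP43, the unripe columns read 113, 135 and 124, and the ripe columns 70.6, 84.1 and 77.4. Ripe pulp had 62.5% of the unripe signal, a log2 difference of -0.68. For psbB, which encodes CP47, the unripe columns read 6.26, 7.45 and 6.85, and the ripe columns 10.03, 11.9 and 10.99. The ripe signal was higher, by a log2 difference of 0.68, which was position 30 from the top of all probe sets. The psbB probe set was the dimmest of the core probe sets. Its unripe signal was below that of the brightest bacterial control, and its ripe signal was 1.33 times this control, so that no fold is given. With 16 added to each signal before log2 the difference was 0.24 and no longer past the threshold.

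Both cytochrome b559 genes were lower in ripe pulp. The signals of psbE, for the alpha subunit, were 66.3, 78.9 and 72.6 in unripe and 39.1, 46.6 and 42.8 in ripe pulp. The ripe signal was 59.0% of the unripe signal, a log2 difference of -0.76 and position 16 from the bottom of all probe sets. The signals of psbF, for the beta subunit, were 166, 197 and 181 in unripe and 125, 149 and 137 in ripe pulp. Ripe pulp had 75.7% of the unripe signal, a log2 difference of -0.40. By brightness the psbF probe set held position 24 in both stages.

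A constant factor between arrays cancels in the gap between 2 genes of the same arrays, whereas quantile normalization and an added offset can change it. In the deposited scaling psbD was lower than its reaction centre partner psbA by a further 0.96 on the log2 scale, or 1.94 fold, and under quantile normalization by 0.15. For the antenna pair psbC was 1.36 below psbB on the log2 scale, but psbB did not pass the bacterial controls in unripe pulp, so that no fold is given, and with 16 added to each signal the gap was 0.82. In the cytochrome b559 pair psbE was 0.36 below psbF (1.28 fold), and 0.68 below it under quantile normalization. As a measure of how much probe sets of a single transcript can differ, the control probe sets for the 5′ end, the middle and the 3′ end of 1 transcript were compared. Their log2 differences spanned 0.14 for bioB, 0.29 for ubiquitin, 0.30 for actin and 0.66 for GAPDH, the last with signals of 9.05 or less. The actin signals also went down to 3.55, below the brightest bacterial control. In the deposited scaling the gaps of the reaction centre pair and of the antenna pair were wider than each of these spans, and that of the cytochrome b559 pair was narrower than the span of GAPDH only. The gap of 0.15 that quantile normalization left to the reaction centre pair was narrower than the deposited spans of ubiquitin, actin and GAPDH.

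The core genes lie in 4 separate clusters of the plastid genome, and genes of these clusters are known from Arabidopsis and other plants to share transcripts. In RefSeq's annotation of the papaya plastid (assembly ASM5485532v1) psbA stands between transfer RNA genes. There psbD is followed by psbC, with overlapping reading frames, and psbC by a transfer RNA gene. The genes psbZ and rps14 were assigned to the psbD cluster without use of this annotation. In the psbD cluster the log2 differences were -1.22 for psbD, -0.68 for psbC and -0.22 for psbZ, a small subunit at the edge of the complex. The last gene of the row, rps14 for a ribosomal protein, was at 0.37, with signals of 4.15 and 5.38 that did not pass the bacterial controls. This gene was added after its value was seen. The gap of 0.54 between psbD and psbC was narrower than the span of the GAPDH controls and wider than those of bioB, ubiquitin and actin, and under quantile normalization psbD was above psbC by 0.12.

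In the psbE cluster the genes psbL and psbJ, for small subunits near cytochrome b559, follow psbE and psbF, and they were lower in ripe pulp as well, at -0.67 and -0.87. From unripe to ripe pulp the signal of psbL went from 31.1 to 19.5, and that of psbJ from 46.7 to 25.6. In the deposited scaling all genes of this cluster were past the threshold in the same direction. Of the 48 plastid-encoded probe sets outside the core that were above the bacterial controls, 26 were lower past it, psbL and psbJ included.

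In the psbB cluster no other gene shared the direction of psbB past the threshold. The log2 difference was 0.031 for psbT, with signals of 2.81 and 2.87 that did not pass the bacterial controls, and -0.037 for psbH, a small phosphoprotein of photosystem II that was clearly detected (39.0 and 38.1). The cytochrome b6f genes petB and petD were at -0.15 and -0.15. Besides psbB only psbN, which is encoded on the opposite strand and is known from tobacco as an assembly factor, passed the threshold, at -0.47 and thus on the lower side. Its signals were 11.2 in unripe and 8.08 in ripe pulp, the latter below the brightest bacterial control.

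**Figure D2:**
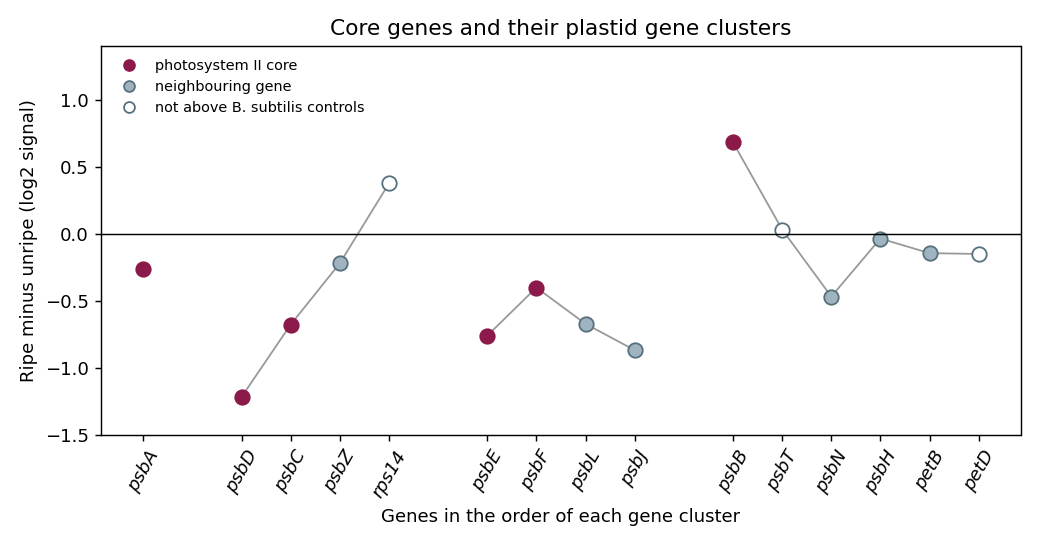
Ripe minus unripe log2 signal of the core genes (dark red) and the genes beside them (grey blue), in the order of each plastid gene cluster; open circles did not pass the bacterial controls in either stage. The psbE cluster lies between -0.87 and -0.40 throughout, whereas psbB at 0.68 stands above every other gene of its cluster.

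Of the 9 small photosystem II genes encoded in the plastid, 5 were lower in ripe pulp past the threshold (psbI, psbJ, psbL, psbM and psbN) and 0 were higher. Their median was -0.40 on the log2 scale. The others were psbZ, psbH, psbT and psbK, the last at 0.17. Core genes and small photosystem II genes past the threshold thus lay on the lower side, with the exception of psbB. Of the 71 other plastid-encoded probe sets, these small genes included, 43.7% were lower past the threshold and 5.63% were higher, with a median of -0.22. Of these, 48 were above the bacterial controls, as the core probe sets were in at least 1 stage. Among the 48, 26 were lower and 3 higher past the threshold, with a median of -0.41. With 6 genes, 4 lower ones are too few to be set apart from these shares. Among the 77 plastid-encoded probe sets psbD held position 2 from the bottom after rpl23, psbE position 8, psbC 13, psbF 31 and psbA 40, and psbB was position 2 from the top after ndhB.

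**Figure D3:**
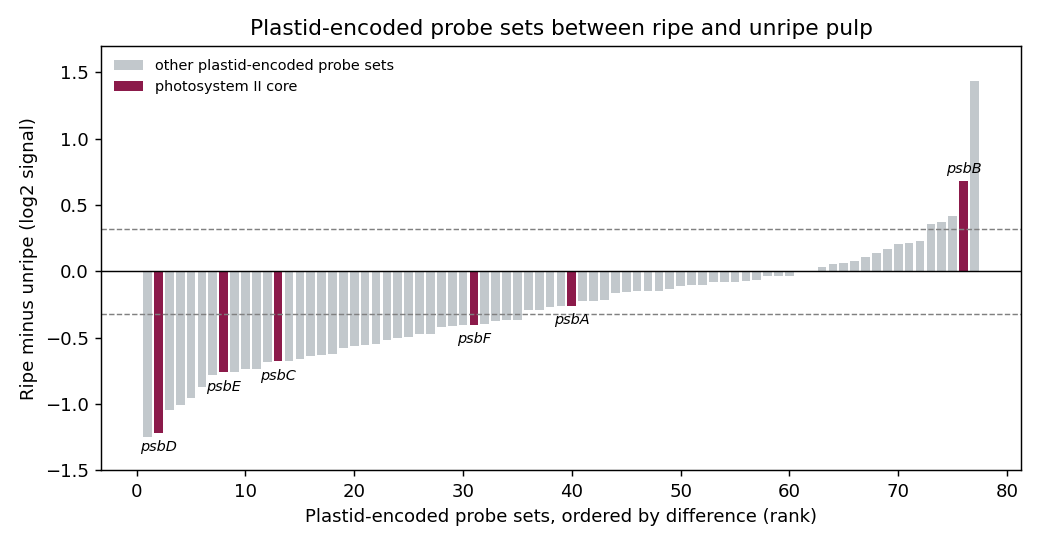
Ripe minus unripe log2 signal of 77 plastid-encoded probe sets, ordered from the lowest to the highest, with the 6 core genes in dark red and the threshold of 0.32 either way as dashed lines. The lower core genes and psbA hold positions 2 to 40, psbD at -1.22 being the lowest, while psbB at 0.68 stands apart near the top.

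Nuclear genes of the complex could be matched by gene symbol for a small part. The unmatched genes may have probe sets among the 8730 without a symbol or the 493 with several. Of 12 nuclear subunits 2 were matched, PSBW (0.16) and PSBY (0.19), and of 14 light-harvesting complex II genes 3 were matched, the CP29 genes LHCB4.1 (-0.30), LHCB4.2 (-0.11) and LHCB4.3 (0.099). Among the assembly factors 4 of 16 were matched, of which PAM68 had the brightest signals (9.87 unripe, 9.91 ripe) and a difference of 0.0055. The others were LPA1 at 0.030, LPA2 at 0.058 and PSB27 at -0.062. The peptidase that trims the end of D1 (AT4G17740) was at 0.15, as the only matched gene of 12 in the repair list. No matched gene of these lists passed the threshold, and only PAM68 exceeded the bacterial controls. Of 8 sigma factor and phage-type polymerase genes, which serve organelle transcription, only RPOTmp (AT5G15700) was matched. It was lower in ripe pulp past the threshold, with signals of 8.74 and 6.47 and a difference of -0.43. Its unripe signal was close to the brightest bacterial control, at 8.22, and its ripe signal was below it.

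By the distance between mean log2 signals in unripe and ripe pulp, the probe set nearest to psbA was rpl20 (distance 0.040), nearest to psbD was rpl23 (0.61), nearest to psbC was rpoC2 (0.44), nearest to psbE was psbI (0.21) and nearest to psbF was rpl14 (0.18). All of these are plastid genes. For psbB the nearest was a nuclear gene, AT5G42830, at 0.033, with signals of 6.71 and 10.8. The distance was taken over 2 stages only and also depends on probe affinity.

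The level of the core genes relative to the rest of the array depended on the scale. The bioB, bioC and bioD hybridization controls, which are added to each sample in known amounts, were dimmer in ripe columns, with a median of -0.60 on the log2 scale, in the range of the lower core genes. The cre controls had a median of -0.053. Scaled to bioB, bioC and bioD, the median of all probe sets was at 0.60. The genes psbD (-0.61), psbE (-0.16) and psbC (-0.074) were below 0, whereas psbF (0.20) and psbA (0.34) were above it. Past the threshold only psbD was lower, while psbB and psbA were higher. Of all probe sets, 0.0352% were lower and 94.6% higher past it under this scaling. Relative to the median of all probe sets, the 4 genes that were lower in the deposited table were as far below as before. This is fixed in advance, since the scaling shifts all probe sets by the same amount, and is no check. Scaled to cre, each direction was that of the deposited table and 4 core genes were lower past the threshold, where 2.14% of all probe sets were lower and 5.97% higher. Under quantile normalization psbD was at -0.36, psbC at -0.48 and psbF at 0.00. This method replaces each signal by the average signal at its brightness rank, and these genes changed rank by few positions. Whether the shift of the hybridization controls has a part in the lower plastid signals was not tested.

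**Figure D4:**
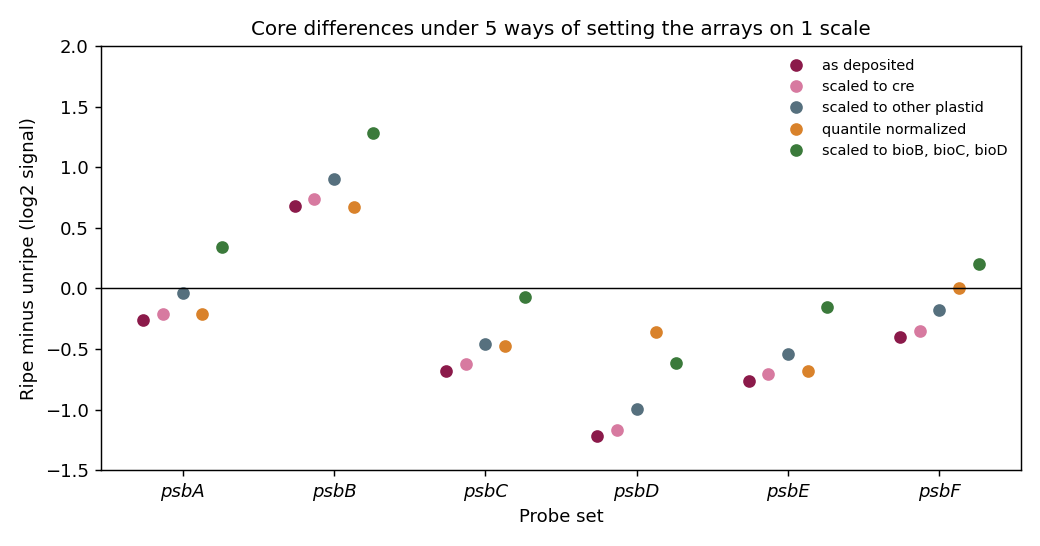
Ripe minus unripe log2 signal of each core gene in the deposited table and after 4 other ways of placing the arrays on the same scale. psbD, psbE and psbC are below 0 and psbB is above 0 in each, but after scaling to bioB, bioC and bioD only psbD is lower past the threshold. This scaling moves psbF and psbA to the other side, and psbF is at 0.00 after quantile normalization.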

How the data were processed

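Intensities were deposited as linear RMA signals, with 1 value for each probe set in each column. According to the methods, the authors generated CEL files with Microarray Analysis Suite, applied RMA in GeneSpring and masked probes by papaya genomic DNA. The sources used here do not state whether the mask was applied to the deposited signals. By the methods, masking also removes probe sets with too few probe pairs. The deposited table holds 22810 probe sets, controls included, more than the paper lists after masking. The signals therefore do not appear to be those of its masked set. The priming site of the reverse transcription is not given either. Plastid transcripts lack stable poly(A) tails. The genomic DNA column (1) was not analysed here, so that results fixed on it were not run.

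A floor of 1 was applied before log2, and each ripe mean was compared with the unripe mean of log2 signals. Counts exclude the 64 control probe sets. GEO's platform annotation gave 1 symbol for 13523 probe sets, several for 493 and none for 8730. Plastid-encoded probe sets were those numbered 244932 to 245050 with a symbol of the papaya plastid. No linear model or ANOVA was run, since the columns of a stage were proportional. Lists held 81 genes, 23 of them matched to a probe set by symbol. Named genes were the core genes, their cluster, the small photosystem II genes, list members past the fold threshold (0.32 on the log2 scale) or otherwise the 3 brightest, and the nearest probe set of each core gene; a few more were added after seeing values. Members and lists were chosen with earlier results of these data known. With 1 set of values per stage, precision cannot be estimated. Alternatives were other scalings, quantile normalization, an offset of 16, linear means, other folds and leaving out columns. The procedure was run on simulated proportional columns without noise. Recovery is fixed by construction there, so that this checks the code only. Python 3.11.15, numpy 2.4.6, pandas 2.3.3 and matplotlib 3.10.9 were used.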

Additional observations from a re-analysis of the deposited data

How the results depend on the processing

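Results on genomic DNA were not run, nor was the ANOVA of the methods. No paired analysis was possible because the columns of a stage are proportional and leave no spread between replicates. Scaled to the other plastid-encoded probe sets, the log2 differences were -0.038 for psbA, 0.90 for psbB, -0.46 for psbC, -0.996 for psbD, -0.54 for psbE and -0.18 for psbF, with a median of -0.32. Scaled to bioB, bioC and bioD they were 0.34, 1.29, -0.074, -0.61, -0.16 and 0.20, with a median of 0.064, 1 core gene lower and 2 higher past the threshold, where 0.0352% of all probe sets were lower and 94.6% higher. Under this scaling the median of the small photosystem II genes was at 0.20 and RPOTmp at 0.17, both on the higher side. Under quantile normalization psbC was at -0.48, psbD at -0.36 and psbF at 0.00, with a median of -0.28. With 16 added to each signal psbB was at 0.24 and psbE at -0.59. At a 2.0 fold threshold 1 core gene was lower. Leaving out a column moves all probe sets by nearly the same amount, at most 0.064 for their median, because the columns are proportional. The ranges that follow were therefore fixed in advance and are no check of the differences. Leaving out each column in turn gave ranges of -0.32 to -0.20 for psbA, 0.62 to 0.74 for psbB, -0.74 to -0.61 for psbC, -1.28 to -1.15 for psbD, -0.83 to -0.70 for psbE and -0.47 to -0.34 for psbF, with medians of -0.60 to -0.48 and 4 to 5 core genes lower, where 1.90% to 6.90% of all probe sets were lower. The fifth was psbA, without unripe replicate 1 (6.90%) or ripe replicate 2 (6.72%), where the median of all probe sets was -0.068 and -0.066. Values that moved by under 0.13 were taken as unmoved, a cutoff from the factor 1.19 that measures no noise. Median centring, scaling to cre and linear means moved no core value past it, and a filter on bright probe sets cannot change values. The gaps between pairs were recomputed after seeing the data. Under quantile normalization psbD minus psbC turned from -0.54 to 0.12. The cause of these shifts was not tested beyond the construction of each scaling.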
